A study of Mus musculus with 6 samples.

Results

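The genes described here keep protein folding going in the endoplasmic reticulum (ER), the compartment in which secreted proteins are made, or carry its stress signals. They were taken from a list of 34 gene symbols, and the row of each symbol was read from the per-library files. A row was found for 33 of the 34, out of 23099 symbols in all, and all 33 passed the filter on low values, set at a mean of 1 or more across the 6 libraries. They fall into 12 folding genes, 8 genes of disulfide formation, 9 of degradation and 4 sensors. Sels had no row under that symbol; RefSeq gives it as another name of a gene that the files list as H47, which is described with the degradation genes and not counted.

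Polyadenylated RNA was sequenced from whole pancreas of 8-week-old mice, in 3 Ela1-Myc libraries and 3 wild-type (WT) libraries. Ela1-Myc mice carry a Myc transgene named for the promoter of elastase 1, a digestive enzyme of acinar cells. Going by its title, the study asked about Myc in the maturation of acinar cells. The sources used here do not state whether each library is a different mouse. The p-values therefore reflect only how far these 6 libraries spread, which may be technical. Strain, sex and the number of copies of the transgene are not given.

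Acinar cells of the exocrine pancreas make and export more protein than almost any other cell, and their cytoplasm is packed with rough ER. Chaperones bind the new chains there, oxidoreductases form and reshuffle their disulfide bonds, and chains that fail to fold are drawn back into the cytosol and degraded. When unfolded protein accumulates, the sensors IRE1, PERK and ATF6 are released from the chaperone BiP and, through the transcription factors XBP1, ATF4 and ATF6, raise the genes for this machinery: the unfolded protein response.

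Many of these genes share a short promoter element through which XBP1 and ATF6 act together with the factor NF-Y, the ER stress response element (ERSE): CCAAT, 9 bases of any kind, then CCACG. RefSeq promoter sequences (GRCm38.p6, 250 bases before to 50 after the transcription start) were matched to 28 of the 33 genes, and the 5 without one were Hyou1, Hspa13, Manf, Derl1 and Atf6. Read on both strands, the element stood in 10 of the 28, which is 35.7%, against 37 of the promoters of 27025 genes, which is 0.137%. A match is a description of letters and not a shown binding site. The 250 bases upstream of Hspa5 and of Hsp90b1 are printed because these are the main folding chaperones; capitals mark the element, which in Hsp90b1 occurs once on each strand, the second time read backwards as CGTGG, 9 bases, ATTGG. Hspa5 is shown on the plus strand (chr2:34771840-34772089) and Hsp90b1 on the minus strand (chr10:86705445-86705694), each in the direction of its gene.
Hspa5: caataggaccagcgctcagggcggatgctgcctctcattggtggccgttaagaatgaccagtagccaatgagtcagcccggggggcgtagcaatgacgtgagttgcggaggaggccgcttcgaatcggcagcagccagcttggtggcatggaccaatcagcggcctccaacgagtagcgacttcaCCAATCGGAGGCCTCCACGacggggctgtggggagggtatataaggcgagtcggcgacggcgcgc
Hsp90b1: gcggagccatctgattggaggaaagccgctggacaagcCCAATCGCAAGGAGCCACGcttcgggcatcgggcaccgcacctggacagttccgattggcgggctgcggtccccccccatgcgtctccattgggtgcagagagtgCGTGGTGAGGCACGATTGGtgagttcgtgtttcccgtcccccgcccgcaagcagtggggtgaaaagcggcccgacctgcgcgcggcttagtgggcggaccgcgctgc

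Shorter windows, the element in capitals with 20 bases on either side, are printed for the other ERSE genes that were called on at least 1 of the scales described further on. They lie at chr8:84847055-84847113 (plus strand), chr11:50325780-50325838 (minus), chr13:12565662-12565720 (minus) and chr10:75893222-75893280 (minus), and are written on the strand on which the element reads CCAAT first. Herpud1 carried the related element ERSE-II instead, ATTGG, 1 base, then CCACG (chr8:94386357-94386407, plus strand).
Calr: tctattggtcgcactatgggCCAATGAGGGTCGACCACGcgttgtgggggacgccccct
Canx: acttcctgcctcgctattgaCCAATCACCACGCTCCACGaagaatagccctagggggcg
Ero1lb: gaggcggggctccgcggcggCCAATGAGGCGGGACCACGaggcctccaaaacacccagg
Derl3: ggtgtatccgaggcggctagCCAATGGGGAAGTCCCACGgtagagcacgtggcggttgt
Herpud1: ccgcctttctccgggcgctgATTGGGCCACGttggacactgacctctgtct

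ERSE also stood in the promoters of Dnajc3, Creld2, Pdia6 and Syvn1, so that 6 of the 10 genes with it were folding genes, 2 formed disulfides and 2 served degradation. ERSE-II was found in Herpud1 and Dnajb11, 2 of the 28 genes (7.14%), against 12 of 27025 genes (0.0444%). CACGTG, the E-box sequence that Myc binds with its partner Max, stood in 4 of the 28 (14.3%), namely Dnajb9, Calr, Pdia2 and Derl3, against 8.09% of all genes. TGACGTGG, a further element of the response whose last 5 letters are the end of ERSE read on the other strand, was in 0 of the 28 and in 0.714% of all genes; this says only that these letters are not in these windows.

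**Figure D1:**
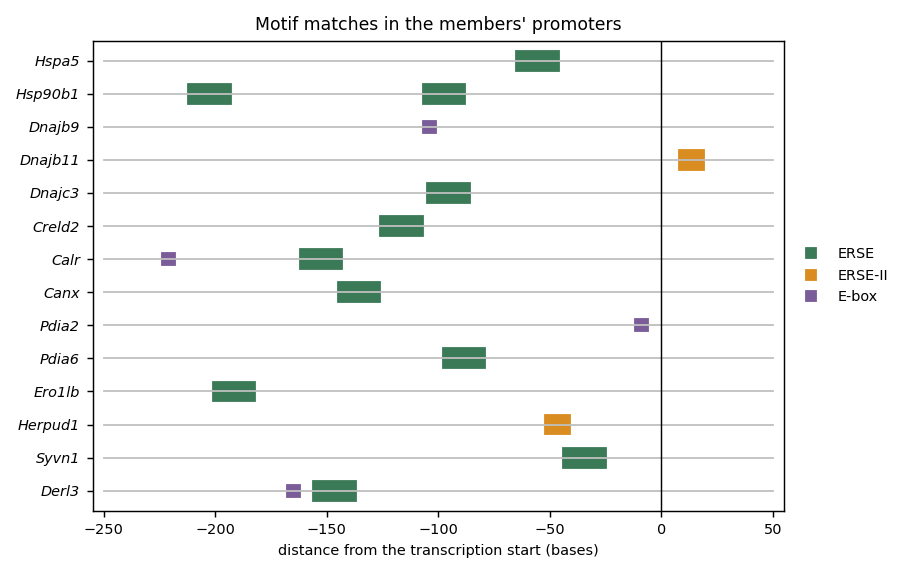
Positions of the ERSE, ERSE-II and E-box letters in the promoters of the 14 genes that hold any of them; the x axis is the distance from the transcription start in bases, each grey line is 1 promoter window, and boxes on either strand are drawn alike. The ERSE matches lie between position -212 (Hsp90b1) and position -26 (Syvn1).

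The libraries differ in ways that touch every value below. The deposited values are an adjusted FPKM, a level per length of transcript, and are printed here divided by 100000. Their totals run from 629597 to 1088320 in Ela1-Myc and from 669391 to 1948844 in WT. Genes listed at exactly 0 number 0, 29 and 13 of the 8802 tested genes in Ela1-Myc replicates 1 to 3, against 1061, 592 and 1426 in WT replicates 1 to 3; an exact 0 is not read as absence. Without further scaling the median gene was 1.22 log2 units higher in Ela1-Myc. After median-of-ratios scaling, which divides each library by the median ratio of its genes to their geometric mean over the libraries (size factors of 1.65, 1.57 and 2.14 in Ela1-Myc and 0.415, 0.892 and 0.610 in WT), the median gene was 0.22 higher. Each change is therefore given on both scales and, where it matters, relative to the median gene. Myc itself was listed at 52, 34.4 and 34.2 in Ela1-Myc, against 0, 4.1 and 0 in WT, with transgene and endogenous gene not separated; its limma log2 change was 4.55 (SE 0.605, adjusted p = 4.97e-05), and 3.71 after scaling (SE 0.697, adjusted p = 0.0131). Digestive enzymes, which define acinar cells, were listed with other acinar secretory proteins in a list of 34 genes, called enzyme genes here. They summed to 394300 to 814132 in Ela1-Myc and 616836 to 1791150 in WT. After scaling the sums were 250872 to 494891 in Ela1-Myc and 1486350 to 2007740 in WT, where the groups no longer overlap. Of the 34, 33 reached a mean of 1, and 4 were listed at 0 in a WT library. As deposited 5 lay above all WT values and 11 below, against 75.3% and 0.534% of all tested genes. The RNA integrity number averaged 8.1 ± 0.819 in Ela1-Myc and 7.23 ± 0.115 in WT (SD, n = 3 each); the labels' protocol text gives a minimum that 5 of the 6 listed values miss. Its part in the results was not tested.

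The 33 genes did not lie on one side of the median gene. On both scales 11 had a log2 change above it: the chaperones Hspa5, Hsp90b1, Hyou1, Sdf2l1, Calr and Canx, the isomerases Pdia3, Pdia4, Pdia5 and Pdia6, and Selk. On both scales 19 lay below it, among them Pdia2, Ero1lb, Xbp1 and 6 of the 9 degradation genes. The other 3 (Manf, Syvn1 and Derl1) were on different sides on the 2 scales. The median log2 change was 0.91 over the 33 genes against 1.22 over all 8802 tested genes on the deposited scale, and -0.12 against 0.22 after scaling.

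By the limma test (adjusted p under 0.05 over all 8802 genes), 13 of the 33 genes were higher on the deposited scale in Ela1-Myc, where 70.2% of all tested genes were higher, and 0 were lower, where 0.239% were. After scaling, 2 of the 33 were higher against 17.1% of all genes, and 8 were lower against 7.1%. Pdia3 and Pdia5 were higher on both scales. The 8 genes lower after scaling were Pdia2, Ero1lb, Herpud1, Edem1, Edem2, Sel1l, Derl3 and Xbp1, and none of these 8 passed the test on the deposited scale. The summed level of the digestive enzyme genes, given above, was also below every WT library after scaling; its part in these 8 calls was not tested. The other 11 genes called on the deposited scale were not called after scaling, and 12 genes passed on neither scale. Counting genes whose 3 Ela1-Myc values all lay on one side of the 3 WT values, 12 lay above and 0 below on the deposited scale, against 75.3% and 0.534% of all genes, and 3 lay above and 13 below after scaling, against 28.9% and 17.2%. All 33 genes had their highest WT value in WT replicate 2. Without that library 23 genes were higher on the deposited scale, and 6 were higher and 6 lower after scaling. Of all 9177 genes tested without it, 7441 were higher on the deposited scale, and 1942 were higher and 546 lower after scaling. Leaving out any 1 of the other libraries left 6 to 10 genes higher and 0 lower on the deposited scale. Between 3937 of 7947 and 5679 of 9160 of all tested genes were then higher, and 4 to 67 were lower. After scaling, 9 genes were lower without Ela1-Myc replicate 1, 3 without WT replicate 1 or WT replicate 3 and 0 without Ela1-Myc replicate 2 or Ela1-Myc replicate 3, and 0 were higher in each of these cases. Among all tested genes, 514 of 8564 were lower without Ela1-Myc replicate 1. Without WT replicate 1 the lower genes numbered 606 of 9314, and without WT replicate 3 they numbered 353 of 9160. Without Ela1-Myc replicates 2 and 3 they numbered 161 of 8431 and 140 of 7947. Higher genes numbered 429 to 1741 in these cases. At an unadjusted p under 0.05, limma gave 15 genes higher and 0 lower on the deposited scale, and 4 higher and 12 lower after scaling. All tested genes were not counted at this threshold, so the unadjusted counts here and below have no background share.

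The calls that held on the deposited scale whichever library was left out were 6: Calr, Canx, Pdia3, Hsp90b1, Pdia4 and Pdia5. All tested genes were not counted in this way, so the counts of kept calls here have no background share. In the single cases, between 3937 of 7947 and 7441 of 9177 of all tested genes were higher on this scale. Hsp90b1, Calr, Pdia3 and Pdia4 have listed zeros in WT, which were taken as measured. Calreticulin, calnexin and the isomerase encoded by Pdia3 form the cycle that folds glycoproteins in the ER. The call of Hspa5 held in 1 of the 6 cases, without WT replicate 2. After scaling no call held in all 6 cases; Ero1lb and Edem1 were lower in 4 of the 6, Pdia2 in 3, Edem2, Derl3 and Xbp1 in 2, and Herpud1 and Sel1l in 1. Pdia3 and Pdia5, the genes higher on both scales, kept their scaled call in 1 case each, without WT replicate 2.

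**Figure D2:**
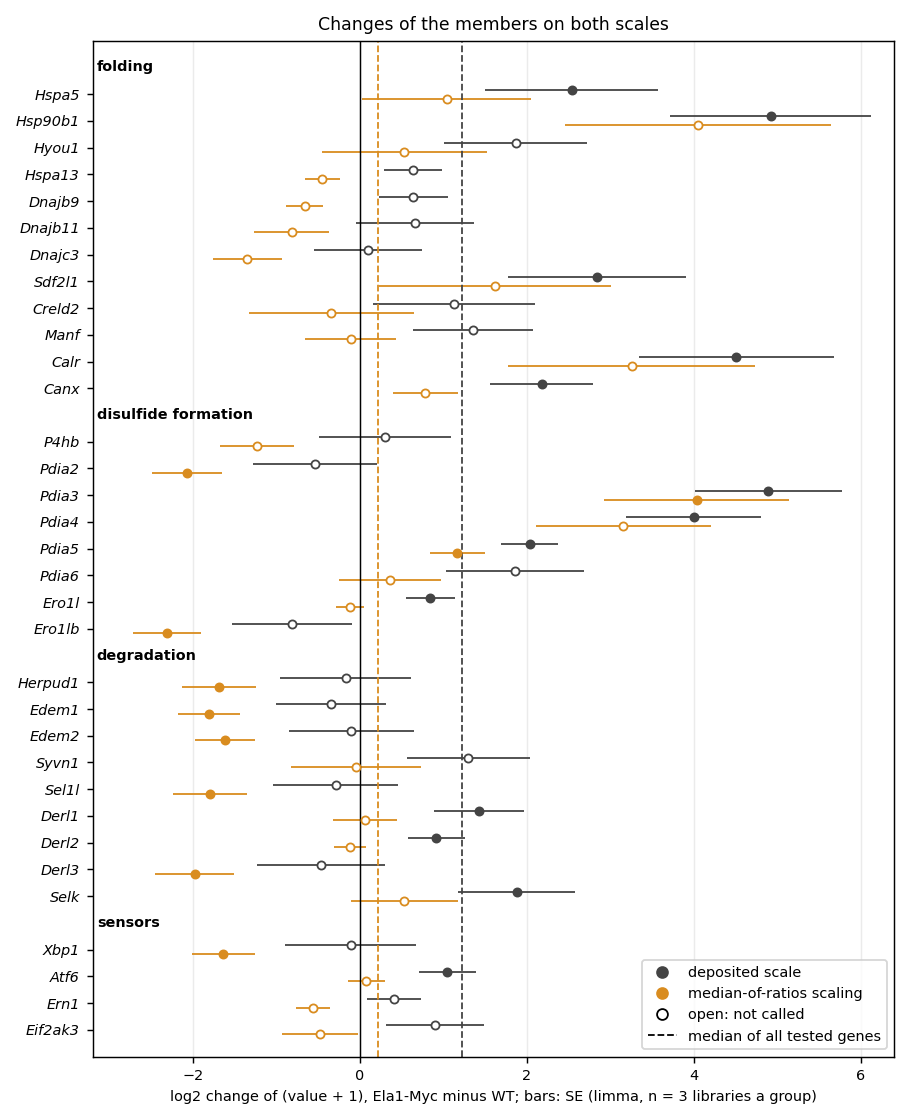
Log2 change of (value + 1), Ela1-Myc minus WT, of the 33 genes by role, with SE from limma (3 libraries a group); dark points are the deposited scale, orange points are after median-of-ratios scaling, filled points passed the test, and dashed lines mark the median of all 8802 genes on each scale. Scaling moves nearly all genes to the left, and Herpud1, Edem1, Edem2, Sel1l and Derl3 lie left of the median gene on both scales.

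Among the 12 folding genes, 5 were higher on the deposited scale, a smaller share than the 70.2% of all tested genes, and 0 passed after scaling (limma, with 1 higher and 2 lower at an unadjusted p under 0.05), where the median folding gene (0.21) lay next to the median of all genes. Hspa5 encodes BiP, the Hsp70-type chaperone of the ER lumen that also holds the stress sensors inactive (chr2:34772090-34776529). It was at 294, 143 and 176 in the Ela1-Myc libraries, against 21.7, 204 and 7.29 in the WT libraries. WT replicate 2 lay among the Ela1-Myc values, and the other 2 WT libraries lay far below them. The log2 change was 2.54 (SE 1.04, limma adjusted p = 0.0405), or 1.31 above the median gene, and 1.04 after scaling (SE 1.01, adjusted p = 0.463).

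Hsp90b1, the Hsp90-type chaperone of the ER (chr10:86690841-86705444), was at 130.5, 103 and 126 in Ela1-Myc, against 0, 62 and 0 in WT, where 2 libraries list it at 0. Calr encodes calreticulin, the soluble lectin that holds new glycoproteins (chr8:84842088-84846931); it was at 201, 175 and 178 in Ela1-Myc, against 5.82, 78.5 and 0 in WT. Its membrane-bound counterpart calnexin, encoded by Canx (chr11:50293957-50325673), was at 31, 27.5 and 35.2 in Ela1-Myc, against 3.59, 15.1 and 3.82 in WT. For all 3 genes every Ela1-Myc value lay above every WT value on the deposited scale. Canx, which is above 0 everywhere, gave a log2 change of 2.18 (SE 0.614, limma adjusted p = 0.00665) and 0.78 after scaling (SE 0.389, adjusted p = 0.178). Hsp90b1 and Calr gave 4.92 (SE 1.2, adjusted p = 0.00289) and 4.51 (SE 1.17, adjusted p = 0.0041); these values take the listed zeros as measured and depend on the added 1. After scaling their log2 changes were 4.05 (SE 1.59, limma adjusted p = 0.105) and 3.26 (SE 1.48, adjusted p = 0.146). Relative to the median gene they were 3.69 and 3.28 on the deposited scale, and 3.83 and 3.04 after scaling.

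Sdf2l1, which works with the co-chaperone ERdj3 to keep substrates soluble, was at 89.6, 21.6 and 51.2 in Ela1-Myc, against 4.87, 48.7 and 0 in WT. The groups overlap on both scales, and the lowest WT library lists it at 0. Its log2 change was 2.84 (SE 1.07, limma adjusted p = 0.0283), and 1.62 after scaling (SE 1.39, adjusted p = 0.411). Hyou1, an exchange factor for BiP, was at 48.3, 16.6 and 21.1 in Ela1-Myc, against 5.04, 33.7 and 0.896 in WT, and did not pass (limma adjusted p = 0.0637 and 0.707 after scaling). 

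Dnajb9, Dnajb11 and Dnajc3 encode J-domain partners of BiP, which pass it substrates and set off its ATPase. Dnajb9 was at 7.38, 7.23 and 8.13 in Ela1-Myc, against 3.51, 5.82 and 4.39 in WT, so that every Ela1-Myc value lay above every WT value as deposited and, with 4.48, 4.6 and 3.8 against 8.45, 6.53 and 7.2, below every WT value after scaling. Dnajb11 ran from 30.2 to 45.1 in Ela1-Myc and from 13.5 to 52.8 in WT, and Dnajc3 from 15.2 to 25 in Ela1-Myc and from 11.6 to 40.1 in WT. None of these 3 passed on either scale (limma adjusted p = 0.165, 0.394 and 0.888, and 0.0707, 0.215 and 0.0542 after scaling). All 3 lay below the median gene on both scales, Dnajc3 by the most (-1.12 and -1.57 relative to it).

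Hspa13, a Hsp70-like protein of the microsomes, ran from 3.08 to 4.14 in Ela1-Myc and from 1.37 to 3.54 in WT. Creld2, a stress-induced ER protein, ran from 38 to 89.9 in Ela1-Myc and from 5.28 to 138 in WT, and Manf, a secreted factor induced by ER stress, from 36.5 to 58.4 in Ela1-Myc and from 7.58 to 40.8 in WT. The groups overlap in all 3 genes as deposited; after scaling Hspa13 lay below all WT values, by a narrow margin (highest Ela1-Myc value 2.52, lowest WT value 2.53). Their log2 changes were 0.64, 1.13 and 1.36 (limma adjusted p = 0.108, 0.296 and 0.1), and -0.45, -0.34 and -0.11 after scaling (adjusted p = 0.152, 0.813 and 0.891).

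**Figure D3:**
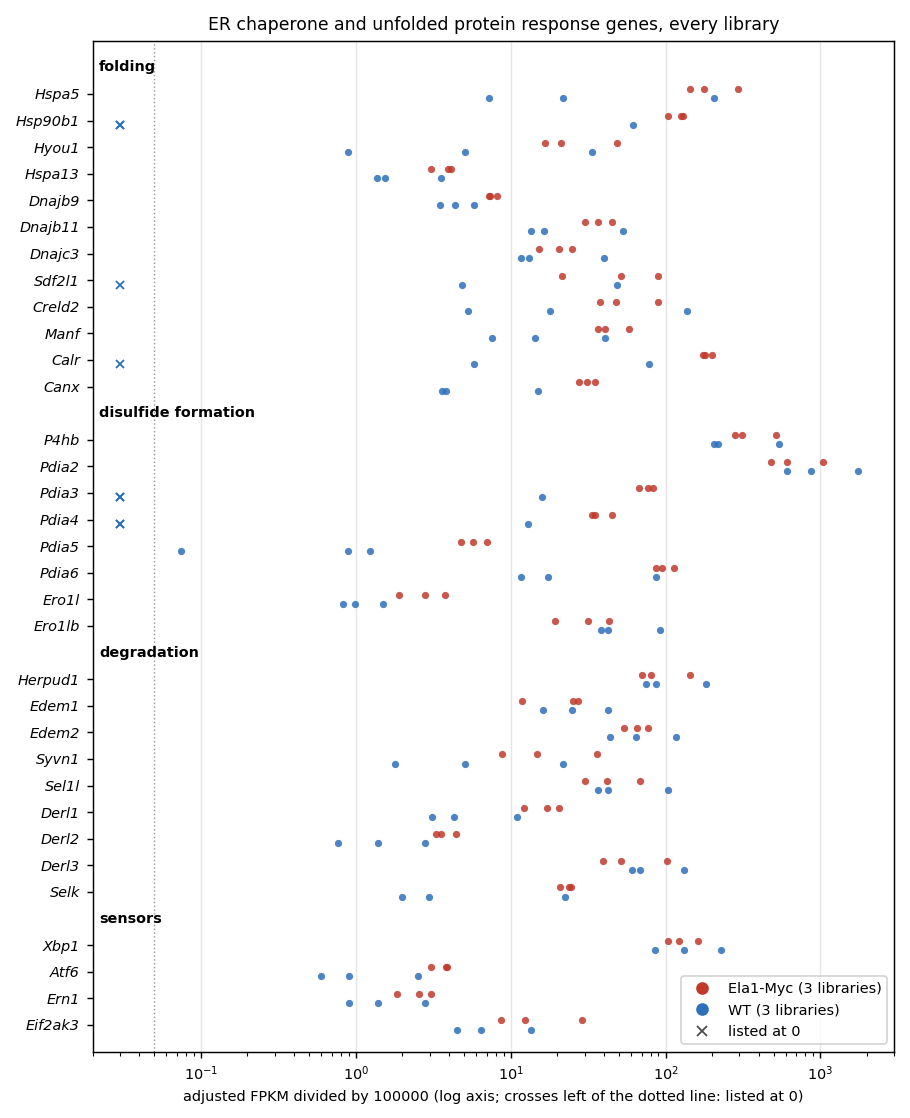
Adjusted FPKM divided by 100000 in every library (log axis) for the 33 genes by role; red points are the 3 Ela1-Myc libraries, blue points the 3 WT libraries, and crosses left of the dotted line are values listed at 0. The 3 Ela1-Myc points of a gene mostly lie closer together than its WT points, and the crosses, in 5 genes, are all WT.

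The spread within the groups differed as well. Among the 28 genes above 0 in all libraries, the highest WT value was 1.66 to 37.6 times the lowest, with a median of 3.29, against a median of 2.74 for the 6995 genes above 0 everywhere. In Ela1-Myc the range over the 33 genes was 1.12 to 4.15 with a median of 1.64, against 1.56 for those 6995 genes. Hyou1, Hspa5 and Creld2 spread the most in WT, by 37.6, 27.9 and 26.1 times. Pdia5, Syvn1 and Selk were the others above 10 times, making 6 of the 28 genes, against 6.66% of the 6995. Dnajb9 spread the least in both groups, by 1.12 times in Ela1-Myc and 1.66 times in WT.

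Of the 8 genes of disulfide formation, 4 were higher on the deposited scale, against 70.2% of all tested genes, and after scaling 2 were higher and 2 lower, against 17.1% and 7.1%. The 2 higher on both scales belong to the disulfide isomerase family. Pdia3, which works on glycoproteins held by calreticulin and calnexin (chr2:121413902-121438686), was at 76.7, 66.9 and 82.5 in Ela1-Myc, against 0, 15.8 and 0 in WT. Pdia5 (chr16:35397312-35490873) was at 7.08, 4.75 and 5.75 in Ela1-Myc, against 0.0749, 1.24 and 0.893 in WT. In both genes every Ela1-Myc value lay above every WT value on both scales. The log2 change of Pdia5 was 2.03 (SE 0.342, limma adjusted p = 0.000248) and 1.17 after scaling (SE 0.328, adjusted p = 0.0433); its WT mean of 0.737 is under the filter, so it was tested because of its Ela1-Myc values. Under quantile normalization Pdia5 was not called (limma adjusted p = 0.0838). Pdia3 gave 4.89 (SE 0.882, adjusted p = 0.000389) and 4.03 after scaling (SE 1.11, adjusted p = 0.0406). Its 2 listed WT zeros are taken as measured, so its change depends on the value added before the log: it was 7.12 with 0.1 added (adjusted p = 0.014), and 15.98 and not called with 1 added to the undivided values (limma adjusted p = 0.0669). Pdia4, a further isomerase, was at 45, 34.9 and 33.4 in Ela1-Myc, against 0, 12.9 and 0 in WT (limma adjusted p = 0.000864, and 0.0682 after scaling); with 2 WT zeros it too was not called with 1 added to the undivided values (adjusted p = 0.0729). Pdia6 did not pass on either scale, at 114, 87.3 and 94.9 in Ela1-Myc and 17.4, 87.3 and 11.6 in WT. Its log2 change was 1.86 (limma adjusted p = 0.0568), and 0.36 after scaling (adjusted p = 0.678).

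Pdia2 and P4hb were the most abundant of the 33 genes in every library. Pdia2 is the isomerase of the exocrine pancreas (chr17:26195999-26199087), and P4hb is its counterpart found in nearly all cells (chr11:120560304-120572936). Pdia2 was at 1031, 482 and 608 in Ela1-Myc, against 604, 1756 and 867 in WT, and P4hb at 517, 281 and 313 in Ela1-Myc, against 206, 536 and 217 in WT. The groups overlap for both genes on the deposited scale. For Pdia2 the log2 change was -0.54 (SE 0.743, limma adjusted p = 0.513), and after scaling it was -2.07 (SE 0.421, adjusted p = 0.0165), with all Ela1-Myc values below all WT values. The scaled levels of Pdia2 were 627, 306 and 284 in Ela1-Myc and 1455, 1969 and 1422 in WT. P4hb had a log2 change of 0.3 (limma adjusted p = 0.727) and of -1.23 after scaling (adjusted p = 0.084); its scaled levels, 314, 179 and 146 in Ela1-Myc and 497, 601 and 357 in WT, do not overlap either.

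The oxidases that recharge these isomerases also come in a pancreas-rich and a widespread form. Ero1lb, the form abundant in pancreas (chr13:12565883-12609528), was at 43.4, 19.2 and 31.7 in Ela1-Myc, against 38.4, 92.4 and 42.8 in WT. Ero1l, the widespread form (chr14:45283087-45318572), was at 2.78, 1.91 and 3.78 in Ela1-Myc, against 0.826, 1.49 and 0.994 in WT. Each Ela1-Myc library lay above all WT values of Ero1l, with a log2 change of 0.84 (SE 0.296, limma adjusted p = 0.0203), which is under the median gene and turned to -0.12 after scaling (adjusted p = 0.625). The log2 change of Ero1lb was -0.82 (SE 0.718, adjusted p = 0.305) and after scaling -2.31 (SE 0.408, adjusted p = 0.0106), the lowest change of the 33 genes on both scales.

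Ratios of 2 genes within a library do not depend on how libraries are scaled to each other, and 3 pairs set a pancreas-rich form over its widespread counterpart. Pdia2 over P4hb was 1.99, 1.71 and 1.94 in the Ela1-Myc libraries, against 2.93, 3.28 and 3.99 in the WT libraries. The ratio of Ero1lb to Ero1l was 15.6, 10.1 and 8.4 in Ela1-Myc, against 46.4, 61.9 and 43.1 in WT. For Derl3 over Derl1, a pair of degradation genes, it was 5.01, 3.25 and 3.03 in Ela1-Myc, against 14.3, 12 and 22.2 in WT. In all 3 pairs each Ela1-Myc library lay below each WT library, WT replicate 2 included. The differences in mean log2 ratio were -0.84 (SE 0.147), -2.18 (SE 0.310) and -2.09 (SE 0.347), so the ratios were 1.79, 4.54 and 4.26 times higher in WT. The exact two-sided permutation test gave p = 0.1 for each, also after adjustment over the 3, and 0.1 is the smallest p that 3 against 3 libraries allow. Of the 6994 other genes above 0 in all libraries, 2.26% had a ratio to P4hb that was lower in Ela1-Myc without overlap, 14.2% a ratio to Ero1l and 17% a ratio to Derl1. A further planned ratio, Canx over Calr, has no value because Calr is listed at 0 in WT replicate 3.

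**Figure D4:**
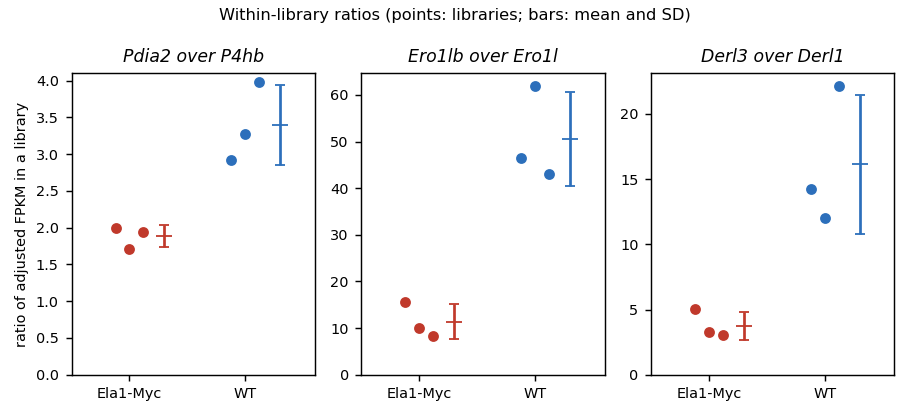
Ratio of the adjusted FPKM of 2 genes in each library (y axis, linear from 0) for the 3 pairs, Ela1-Myc left and WT right; points are libraries, bars are the mean and SD of 3 libraries. No Ela1-Myc point reaches a WT point in any panel.

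Of the 9 degradation genes, 3 were higher on the deposited scale, against 70.2% of all tested genes, and 5 were lower after scaling, against 7.1%. Herpud1, Edem1, Edem2, Sel1l and Derl3 had log2 changes of -0.46 to -0.1 on the deposited scale and of -1.98 to -1.61 after scaling, where all 5 were called lower. Herpud1, a membrane protein that organises the degradation complex (chr8:94386500-94395358), was at 143, 70.2 and 80.7 in Ela1-Myc, against 74.2, 182 and 86.1 in WT. Sel1l, the adaptor of the ubiquitin ligase (chr12:91806043-91849157), was at 68.8, 30.2 and 41.7 in Ela1-Myc, against 36.4, 103 and 42.7 in WT. Both overlap between the groups as deposited; after scaling all Ela1-Myc values lay below all WT values, with limma adjusted p = 0.036 and 0.0303.

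Edem1 and Edem2 encode proteins that trim the sugars of misfolded glycoproteins to mark them. Edem1 was at 27.1, 11.8 and 25.4 in Ela1-Myc, against 16.1, 42.8 and 25 in WT. For Edem2 the levels were 77.2, 53.6 and 65.5 in Ela1-Myc, against 44, 117 and 64.8 in WT. The groups overlap for both as deposited. Their log2 changes after scaling were -1.81 (SE 0.369, limma adjusted p = 0.0168) and -1.61 (SE 0.357, adjusted p = 0.0215). Derl3, a membrane protein of the exit channel prominent in secretory tissue (chr10:75893398-75895941), was at 102, 39.3 and 51.6 in Ela1-Myc, against 61, 132 and 68.8 in WT. It overlapped as deposited and lay wholly below WT after scaling (log2 change -1.98, SE 0.473, limma adjusted p = 0.0271).

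The 3 genes higher on the deposited scale were Derl1, Derl2 and Selk. Derl1 was at 20.4, 12.1 and 17 in Ela1-Myc, against 4.28, 11 and 3.11 in WT, and Derl2, a related derlin, at 3.57, 3.31 and 4.47 in Ela1-Myc, against 0.766, 2.81 and 1.39 in WT. Neither overlapped as deposited. Selk, a selenoprotein that binds the derlins, was at 24.5, 21 and 23.8 in Ela1-Myc, against 2.98, 22.5 and 1.98 in WT, where replicate 2 lay among the Ela1-Myc values. The log2 changes were 1.43, 0.91 and 1.88 (limma adjusted p = 0.029, 0.0283 and 0.0272); after scaling they were 0.063, -0.12 and 0.53 and none passed. Syvn1, the ubiquitin ligase itself, was called on neither scale, at 36.3, 8.79 and 14.7 in Ela1-Myc and 5.05, 21.8 and 1.79 in WT (limma adjusted p = 0.121 and 0.968 after scaling). H47, the gene to which RefSeq gives the name Sels, was at 41.7, 15.3 and 32.7 in Ela1-Myc, against 18.8, 51.2 and 23.9 in WT, with a log2 change of -0.045 (limma adjusted p = 0.954) and -1.52 after scaling (adjusted p = 0.0425).

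Among the sensors and their factor, Xbp1 was by far the most abundant (chr11:5520967-5525872). Its product is made active when IRE1 splices its messenger RNA, and the values per gene do not separate the forms. Xbp1 was at 162, 103 and 123 in Ela1-Myc, against 85.5, 228 and 132 in WT. The groups overlap as deposited (log2 change -0.11, SE 0.785, limma adjusted p = 0.901), and after scaling each Ela1-Myc value lay below each WT value, at 98.5, 65.5 and 57.3 in Ela1-Myc and 206, 256 and 216 in WT (log2 change -1.63, SE 0.381, adjusted p = 0.0252). Atf6, the sensor that is cut in the Golgi to release a transcription factor (chr1:170704457-170867771), was at 3.8, 3.04 and 3.91 in Ela1-Myc and 0.6, 2.52 and 0.906 in WT. It was higher without overlap on the deposited scale (1.05, SE 0.338, adjusted p = 0.0135) and close to 0 after scaling (0.079, adjusted p = 0.812). Ern1, the gene of IRE1 (chr11:106397620-106487796), was at 3.07, 1.85 and 2.55 in Ela1-Myc and 0.905, 2.82 and 1.4 in WT. Eif2ak3, the gene of PERK (chr6:70844527-70905240), was at 28.7, 8.66 and 12.3 in Ela1-Myc and 4.49, 13.5 and 6.4 in WT. Neither passed on either scale (limma adjusted p = 0.254 and 0.174, and 0.0854 and 0.462 after scaling).

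Summed within each library, the make-up of the group differed between the genotypes, and this too does not depend on the scaling. Folding genes made up 28.8%, 31.5% and 31.3% of the summed levels in Ela1-Myc, against 8.22%, 17.6% and 3.43% in WT. Disulfide genes made up 51.6%, 49.8% and 49.2% in Ela1-Myc, against 66.1%, 60.9% and 69.9% in WT. In both roles, and in the roles given next, the groups do not overlap, and the shares in WT are reckoned with 5 genes that a WT library lists at 0. The shares of a library come from the same sum, so a change in one moves the others. Degradation genes held 12.8% to 14.1% in Ela1-Myc and 15.4% to 18.7% in WT, and the sensors, mostly Xbp1, 5.55% to 5.94% in Ela1-Myc and 6.01% to 8.59% in WT. Pdia2 alone accounted for 26.3% ± 2.31 of the sum in Ela1-Myc and 47.3% ± 5.28 in WT (SD, n = 3 each). Of the other disulfide genes, Pdia3, Pdia4, Pdia5, Pdia6 and Ero1l had larger mean shares in Ela1-Myc than in WT, and Ero1lb a smaller one. P4hb took 14.0% ± 0.759 in Ela1-Myc and 14.0% ± 1.48 in WT, and Hspa5 7.65% ± 0.536 in Ela1-Myc and 2.36% ± 2.34 in WT.

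**Figure D5:**
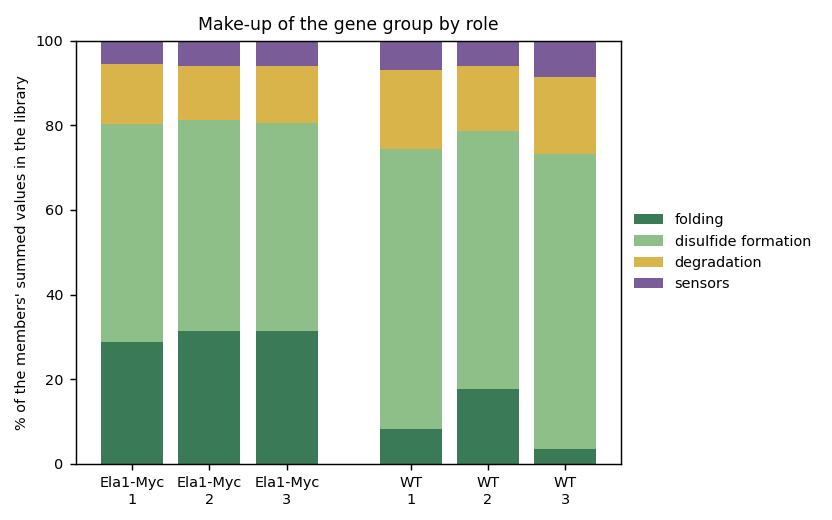
Share of each role in the summed adjusted FPKM of the 33 genes (y axis, % of the sum), 1 bar per library, with the 3 Ela1-Myc libraries left and the 3 WT libraries right. The folding share lies between 28.8% and 31.5% in Ela1-Myc and between 3.43% and 17.6% in WT.

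The 33 genes together held 0.318% ± 0.00838 of all values in Ela1-Myc and 0.182% ± 0.0383 in WT (SD, n = 3 each). Counted without the 34 enzyme genes, which make up most of each library, they held 1.07% ± 0.233 of the rest in Ela1-Myc and 2.40% ± 0.270 in WT. The groups overlap in neither share, and the shares differ in opposite directions. In bulk tissue, fewer cells of a type and less RNA per cell cannot be told apart.

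Genes with and without ERSE can be set side by side as a description. Of the 10 with the element, 4 were higher on the deposited scale (Hspa5, Hsp90b1, Calr and Canx), and 2 were lower after scaling (Ero1lb and Derl3). The 18 matched genes without it include Herpud1 and Dnajb11, which carry the related ERSE-II. Of these 18, 7 were higher on the deposited scale, and after scaling 2 were higher and 6, Herpud1 among them, lower. Both counts on the deposited scale are smaller shares than the 70.2% of all tested genes. After scaling, 17.1% of all tested genes were higher and 7.1% lower. The median log2 change was 1.58 with the element and 0.65 without it, and 0.16 and -0.61 after scaling. Over all tested genes the median was 1.22 on the deposited scale and 0.22 after scaling. In the searched window the element is thus carried by genes called higher only on the deposited scale, Hspa5 and Calr among them. Ero1lb and Derl3, called lower only after scaling, carry it too.

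The wider pathway was described by 3 lists of other genes, 74 in the files and 71 of them tested. On the deposited scale 37 of the 71 were higher and 0 lower by limma (41 and 0 at an unadjusted p under 0.05), a smaller share than the 70.2% of all tested genes, and the median log2 change was 1.01, below that of all genes. Scaled, 3 were higher and 11 lower, against 17.1% and 7.1% of all tested genes, and the median was -0.13. The counts of each list below are to be read against the same shares. In the list of other folding and glycan quality control genes, 16 of 29 were higher as deposited, and 1 was higher and 4 lower after scaling. Rcn1, a calcium-binding protein of the ER, was at 8.32, 5.75 and 7.9 in Ela1-Myc, against 0.0339, 0.548 and 0 in WT, and passed on both scales (limma adjusted p = 1.16e-05 and 0.00226); all its WT values are under 1, so it passed the filter through its Ela1-Myc values. Prkcsh, a subunit of glucosidase II, Erp29 and Calu were the others with the largest increases as deposited, with log2 changes of 3.41, 2.98 and 2.89 (limma adjusted p = 0.000461, 0.00415 and 0.00104). The 4 lower after scaling were Txndc11, Prdx4, Qsox1 and Uggt1, with log2 changes of -1.82, -1.63, -1.52 and -0.99 (limma adjusted p = 0.0124, 0.028, 0.0302 and 0.0442). As deposited their log2 changes were -0.39, -0.11, -0.047 and 0.26 (limma adjusted p = 0.544, 0.903, 0.951 and 0.582). Prdx4 and Qsox1 serve disulfide formation and Uggt1 tests the fold of glycoproteins.

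In the list of other degradation genes, 11 of 23 were higher as deposited and 4 were lower after scaling. Vcp, the ATPase that pulls chains out of the membrane, had the largest increase, at 60.0, 40.2 and 49.4 in Ela1-Myc, against 5.22, 30.1 and 2.11 in WT (limma adjusted p = 0.00978, and 0.263 after scaling). Ube2g2, Man1b1 and Stt3b followed, with log2 changes of 1.64, 1.5 and 1.45 (limma adjusted p = 0.0103, 0.0079 and 0.028). The 4 lower after scaling were Edem3, Herpud2, Erlec1 and Ngly1, at -1.04, -0.999, -0.98 and -0.7 log2 units (limma adjusted p = 0.0312, 0.0316, 0.0157 and 0.0324). As deposited all 4 had the other sign, at 0.18, 0.22, 0.17 and 0.45 (limma adjusted p = 0.687, 0.619, 0.666 and 0.252). Edem3 and Herpud2 are paralogs of Edem1, Edem2 and Herpud1, which were also called lower only after scaling.

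In the list of other signalling genes, 10 of 19 were higher as deposited, and after scaling 2 were higher and 3 lower. Ddit3, the CHOP factor induced through PERK, was at 18.6, 4.87 and 4.02 in Ela1-Myc, against 0, 0.965 and 0 in WT, and Eif2s1, the translation factor that PERK phosphorylates, at 8.32, 10.5 and 10.8 in Ela1-Myc, against 0.555, 2.47 and 0 in WT. Both passed on both scales (limma adjusted p = 0.000267 and 0.000212, and 0.043 and 0.0433 after scaling), with WT libraries listed at 0 in each. All WT values of Ddit3 are under 1, so it too passed the filter through its Ela1-Myc values. Atf6b and Tmbim6 were higher as deposited, by 2.5 and 1.94 log2 units (limma adjusted p = 0.00131 and 0.0373). The 3 lower after scaling were Creb3l1, a membrane-bound transcription factor of secretory cells, Bhlha15, the acinar maturation factor Mist1 and a target of XBP1, and Wfs1, a regulator of ER stress signalling, at -1.75, -1.68 and -0.97 log2 units (limma adjusted p = 0.0121, 0.0191 and 0.0353). As deposited these genes were at -0.35, -0.21 and 0.12 (limma adjusted p = 0.539, 0.782 and 0.711).

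Other secretory and immune cells of the pancreas express the same machinery, and lists of their markers were summed in each library. As deposited the sums did not overlap between the groups for the macrophage, stellate cell and endothelial lists, and they overlapped for the islet, lymphocyte, duct and adipocyte lists. The macrophage and myeloid list summed to 508 to 1393 in Ela1-Myc and 0.711 to 57.4 in WT (309 to 887 in Ela1-Myc and 1.17 to 119 in WT after scaling). As deposited 11 of its 11 genes lay above all WT values, against 75.3% of all tested genes, and Ptprc, Cd68, Emr1, C1qa, C1qb and Tyrobp were at 0 in at least 2 WT libraries. The stellate cell and fibroblast list summed to 373 to 579 in Ela1-Myc and 49.3 to 113 in WT (227 to 362 in Ela1-Myc and 80.9 to 189 in WT after scaling). The endothelial list, at 27.9 to 34 in Ela1-Myc and 12.4 to 18.8 in WT, was at 15.6 to 21.6 in Ela1-Myc and 20.4 to 33.8 in WT after scaling, where the groups overlap and lie the other way round.

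The islet list of 12 genes summed to 2448, 2866 and 3369 in Ela1-Myc and to 0.242, 2482 and 395 in WT. After scaling the sums were 1488 to 1824 in Ela1-Myc and 0.583 to 2782 in WT. As deposited, WT replicate 2, highest among WT libraries for all 33 genes, was also highest for this list. The same library was highest in WT for the enzyme, duct, macrophage, stellate cell and endothelial lists and had the largest WT total. WT replicate 1 was highest in WT for the lymphocyte and adipocyte lists. The lymphocyte and plasma cell list summed to 43.6 to 332 in Ela1-Myc and 0.0261 to 72.5 in WT (26.5 to 211 in Ela1-Myc and 0.0429 to 175 in WT after scaling). As deposited 3 of its 11 genes lay above all WT values, against 75.3% of all tested genes. Only 9 of the 11 reach the mean of 1 that all tested genes reach, so the shares are not fully alike. Among others, Cd3e, Cd3g, Cd79b, Ms4a1, Igj, Sdc1 and Pou2af1 were at 0 in at least 2 WT libraries. The duct list was at 187 to 346 in Ela1-Myc and 73.5 to 206 in WT, and after scaling at 114 to 196 in Ela1-Myc and 177 to 231 in WT. The adipocyte list was at 152 to 534 in Ela1-Myc and 15.0 to 241 in WT, and after scaling at 92.1 to 339 in Ela1-Myc and 24.7 to 582 in WT. Their part in the results was not tested.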

How the data were processed

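For every gene and library the deposited files give an adjusted FPKM, per the file headers: fragments per length of transcript, set against the mapped total. The authors' adjustment itself is not described in what was used. The submitters' processing notes name, with no roles, the tools affy, Bowtie, TopHat2 (2.0.4), Cufflinks (2.0.2), FastQC (0.9.4) and CASAVA (1.8), and the build GRCm38 (mm10). Libraries were stranded by dUTP and carried ERCC spike-ins, per the labels' protocols; spike-in rows and read counts were not used here, so the depth is unknown.

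All values were divided by 100000, a constant chosen after the files were seen, to bring them to the usual FPKM range. Of the 23422 rows, with 23099 symbols, 187 symbols had repeats, and their row of highest mean was used. The 8802 genes whose mean reached 1 entered limma 3.58.1 (R 4.3.3) as log2(value + 1), fitted with a trend on intensity and the group alone, two-sided, and a gene was called where its p, adjusted over all of them by Benjamini-Hochberg, was under 0.05. Changes on this scale understate low genes, and listed zeros enter as measured. The script was tested on simulated data. Size factors used the 11198 symbols above 0 in all libraries. Within-library ratios were set against each other with the exact permutation test, two-sided. Motifs were searched as exact letters on both strands of RefSeq promoters. The orientation of all 28 matched genes was checked against GENCODE transcripts. In 26 of the 28 the last 30 promoter bases lay in a transcript of the gene on the same strand. The others did not pass this check and were kept. Gene coordinates are those of the files, counted from 1.

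The members and all lists were chosen with earlier results of these data known. A marker gene of one list is not reported here by name. By the rule for names, all members may be named, with values in every library for those called on either scale and for a fixed set of the best known, plus up to 4 called genes per direction, scale and list of other pathway genes, by size of change. Alternatives were the pseudocount, the scaling, the filter, array weights and leaving out each library. Python 3.11.15 with pandas 2.3.3, numpy 2.4.6, scipy 1.17.1 and, for the figures, matplotlib 3.10.9 was used.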

Additional observations from a re-analysis of the deposited data

How the results depend on the processing

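The counts depend on how libraries are put on a common scale, and the within-library ratios do not. Higher and lower calls are given in the order of the 33 genes, the other pathway genes and all tested genes. As reported they were 13, 37 and 6182 higher and 0, 0 and 21 lower. With a pseudocount of 1 on the undivided values they were 2, 19 and 3369 higher and 0, 0 and 6 lower. Median-of-ratios scaling gave 2, 3 and 1504 higher and 8, 11 and 625 lower, and 1, 1 and 647 higher and 9, 12 and 685 lower when only genes above 0 in all libraries were kept. Quantile normalization gave 2, 4 and 996 higher and 14, 26 and 1758 lower. With the enzyme genes left out and equal totals, 3, 4 and 1458 were higher and 10, 8 and 515 lower. Array weights gave 23, 56 and 7572 higher and 0, 0 and 132 lower. Without a filter, where 33, 74 and 23099 genes are tested, 4, 29 and 8482 were higher and 0, 0 and 25 lower. A pseudocount of 0.1 gave 9, 34 and 5697 higher and 0, 0 and 14 lower. Only genes above 0 without scaling gave 12, 37 and 4809 higher and 0, 0 and 30 lower. In both settings with only genes above 0, the genes tested were 28, 66 and 6995. The counts of 9 and 12 stayed within 1.5 times the reported 13, though the 12 are out of 28 genes and not 33. Leaving out 1 library, with or without scaling, the ranges were 0 to 23, 1 to 56 and 429 to 7441 higher and 0 to 9, 0 to 10 and 4 to 606 lower. The log2 ratios kept their sign without each library, at -0.94 to -0.72 for Pdia2 over P4hb, -2.44 to -1.99 for Ero1lb over Ero1l and -2.32 to -1.84 for Derl3 over Derl1. The cause of these differences was not tested.

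Log2 changes of single genes turned their sign as follows. Under scaling, with or without the genes listed at 0, they were Hspa13 -0.45, Dnajb9 -0.66, Dnajb11 -0.82, Dnajc3 -1.35, Creld2 -0.34, Manf -0.11, P4hb -1.23, Ero1l -0.12, Syvn1 -0.0469, Derl2 -0.12, Ern1 -0.56 and Eif2ak3 -0.48. Under quantile normalization they were Hspa13 -0.77, Dnajb9 -0.90, Dnajb11 -0.94, Dnajc3 -1.51, Creld2 -0.49, Manf -0.27, P4hb -1.32, Ero1l -0.51, Syvn1 -0.24, Derl1 -0.15, Derl2 -0.44, Atf6 -0.26, Ern1 -0.98 and Eif2ak3 -0.70. With the enzyme genes left out they were Hspa13 -0.43, Dnajb9 -0.64, Dnajb11 -0.77, Dnajc3 -1.31, Creld2 -0.29, Manf -0.0585, P4hb -1.18, Ero1l -0.0846, Derl2 -0.074, Ern1 -0.56 and Eif2ak3 -0.44, and with array weights Herpud1 was 0.0071. Over the settings that leave out 1 library, with or without scaling, the ranges of the genes that turned were Hspa5 -0.044 to 3.84, Hyou1 -0.58 to 2.98, Hspa13 -0.64 to 0.93, Dnajb9 -0.75 to 0.80, Dnajb11 -1.23 to 1.25, Dnajc3 -1.72 to 0.64, Sdf2l1 -0.013 to 4.29 and Creld2 -1.43 to 2.35, then Manf -0.70 to 1.98, P4hb -1.52 to 0.75, Pdia6 -0.26 to 2.70, Ero1l -0.19 to 1.03, Herpud1 -2.02 to 0.22, Edem1 -2.02 to 0.0204, Edem2 -1.76 to 0.27 and Syvn1 -0.84 to 2.12, and Sel1l -2.12 to 0.17, Derl1 -0.32 to 1.88, Derl2 -0.31 to 1.21, Selk -0.11 to 2.80, Xbp1 -1.83 to 0.26, Atf6 -0.083 to 1.39, Ern1 -0.72 to 0.69 and Eif2ak3 -0.94 to 1.29. No gene of the 33 called on the deposited scale was called in the other direction after scaling. No paired analysis was possible because the labels give no replicate numbers; the numbers used here only name the libraries of a group. Depth is unknown, since the files hold no counts, so intervals and limits from counting are not given.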
